A study of Caenorhabditis elegans with 8 samples.

Results

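The genes described here are 10 of the 17118 that the array measured, chosen because their known expression marks male sensory neurons and the cilia of those neurons. They are cwp-1, cwp-2, cwp-3, cwp-4, cwp-5, pkd-2, lov-1, klp-6, cil-7 and trf-1, selected by name. Each was read by 1 probe set, a group of short probes against the same transcript, annotated to that gene alone. The organism was the nematode Caenorhabditis elegans, and 1-colour arrays gave the transcript levels as log2 values. In the mutant group, 4 arrays carried RNA of ercc-1 worms, which lack working nucleotide excision repair according to the labels, in the N2 strain background. The control group was wild type N2, the standard laboratory strain, also on 4 arrays. Both groups were mixed-stage cultures that grew for 3 to 4 days with E. coli HT115(DE3) pL4440, a bacterial strain carrying a plasmid, as food. The labels name no ercc-1 allele, give no count of males, and do not tie replicates to separate cultures. The p-values therefore reflect the spread among these arrays alone, part or all of which may be technical.

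The ercc-1 transcript lay between 9.75 and 9.93 on the mutant arrays and between 9.74 and 10.02 on the wild-type arrays. The groups overlapped, and where the probes lie relative to the mutation is not known here, so this value does not check the labels.

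Most C. elegans are self-fertilising hermaphrodites, and males arise rarely, mainly when an X chromosome is lost in meiosis. Males have additional ciliated neurons, among them the CEM neurons of the head and the ray and hook neurons of the tail, with which they sense and locate a mate. The cilia of these cells carry a polycystin complex and shed extracellular vesicles that hold it. Several of the same genes are also active in the IL2 neurons, which both sexes have, so these transcripts are not all strictly male. The comparison of ercc-1 mutant with wild type N2 was read here as a gauge of males in the cultures, array by array. In whole worms, fewer cells of a type and less RNA per cell cannot be told apart.

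Of the 10 genes 1, cwp-2, passed the test with a higher level in the mutant, and the other 9 did not pass (limma, adjusted p under 0.05 over all probe sets). Over all genes measured the share that passed was 0.672%, and the share that passed with a higher level in the mutant 0.532%. The levels of cwp-2 and cil-7 did not overlap between the groups, and lay higher in the mutant, against 5.01% of all genes. For 8 of the 10 genes the mean was above wild type, as it was for 59.5% of all genes. The median log2 difference over the 10 genes was 0.10, beside 0.03 over all genes, and it was 0.01, beside -0.06, with every array shifted to a common median (median centring). Background levels and detection calls were not used here, and 5 of the 10 genes (cwp-2, cwp-3, cwp-4, pkd-2 and cil-7) belonged to the dimmest 25% of probe sets, whose means lay under 6.43.

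**Figure D1:**
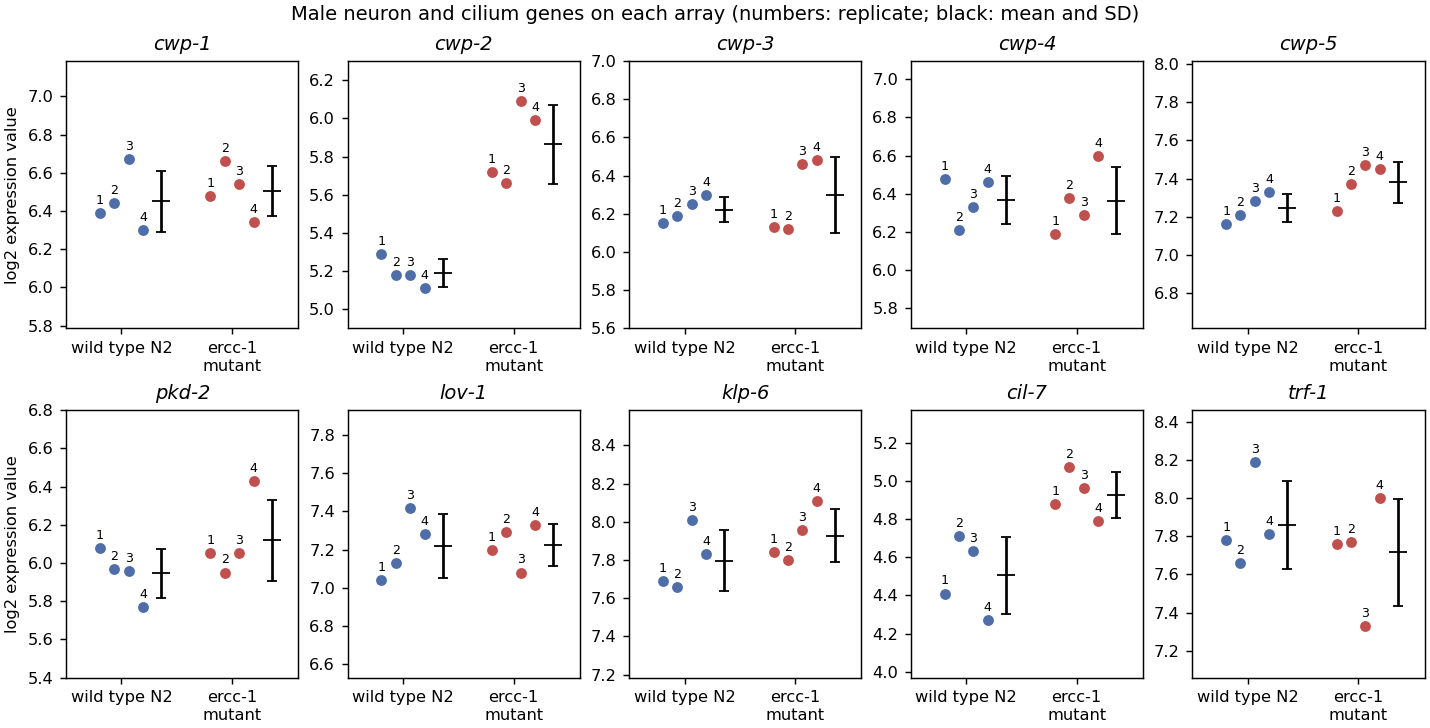
Log2 expression value of the 10 genes on each of the 4 wild type N2 arrays (blue) and 4 ercc-1 mutant arrays (red), numbered by replicate, with mean and SD in black; every panel spans the same number of log2 units. For cwp-2 and cil-7 all mutant values lie above all wild-type values, and in the other panels the groups overlap.

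LOV-1 and PKD-2 are the worm's polycystins, the counterparts of the human proteins altered in autosomal dominant polycystic kidney disease, and act together as a receptor and channel in the male cilia. The level of lov-1 was 7.20, 7.29, 7.08 and 7.33 on mutant replicates 1 to 4. On wild-type replicates 1 to 4 it was 7.04, 7.13, 7.42 and 7.28. The groups covered each other almost completely, and the highest value was on a wild-type array. The log2 difference of lov-1 was 0.008 (SE 0.099, 95% confidence interval -0.21 to 0.23), with adjusted p = 0.991. It was -0.08 after median centring, -0.07 after quantile normalization and -0.05 without wild-type replicate 1, so lov-1 had no settled direction. The levels of pkd-2 were 6.05, 5.95, 6.05 and 6.43 on mutant replicates 1 to 4. They were 6.08, 5.97, 5.96 and 5.77 on wild-type replicates 1 to 4. Mutant replicate 4 stood above the other 7 arrays, which lay close together apart from a low wild-type replicate 4. The log2 difference of pkd-2 was 0.18 (interval -0.08 to 0.43, adjusted p = 0.692), and 0.07 without mutant replicate 4. The probe set of pkd-2 carries the suffix _s_at, which marks possible matches to several transcripts.

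KLP-6 is a kinesin motor of the kinesin-3 family that moves within these cilia and is needed for PKD-2 to be placed correctly. Its transcript read 7.84, 7.80, 7.96 and 8.11 on the mutant arrays. On the wild-type arrays it read 7.69, 7.66, 8.01 and 7.83. The 4 mutant values all lay above the wild-type mean of 7.797, but wild-type replicate 3 was higher than 3 of them. The log2 difference was 0.13 (interval -0.10 to 0.36, adjusted p = 0.76).

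CIL-7 is a membrane-anchored protein of the ciliated neurons that is required for the release of polycystin-bearing vesicles. The cil-7 probe set read 4.88, 5.07, 4.96 and 4.79 on mutant replicates 1 to 4. It read 4.41, 4.71, 4.63 and 4.27 on wild-type replicates 1 to 4. The groups were separate, with a gap of 0.08 between the lowest mutant and the highest wild-type array. The mutant mean was 4.92 ± 0.119 and the wild-type mean 4.50 ± 0.202 (SD over 4 arrays). The log2 difference of 0.42 (interval 0.17 to 0.67), a 1.34-fold higher level, did not pass the test over all probe sets (adjusted p = 0.18). Its unadjusted p was 0.0037. At the looser threshold of 0.05 the share of all genes was 10.5%, and the share at 0.0037 was not counted. With array weights the difference was 0.54 and passed (adjusted p = 0.0165), in a fit where mutant replicate 2 had a weight of 5.05 and the other mutant arrays 0.32 to 0.62. This probe set averaged 4.71 over the 8 arrays, among the dimmest 25%, and has the suffix _s_at.

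The cwp genes are named for being expressed together with the polycystins in the male neurons, and trf-1, which encodes a protein of the TRAF family of signalling adaptors, shares that expression. The level of cwp-2 was 5.72, 5.66, 6.09 and 5.99 on mutant replicates 1 to 4. It was 5.29, 5.18, 5.18 and 5.11 on wild-type replicates 1 to 4. The groups were 0.37 apart at their nearest arrays, and mutant replicates 3 and 4 were the highest. The mutant mean was 5.86 ± 0.208 and the wild-type mean 5.19 ± 0.074 (SD over 4 arrays). The rise was 1.6-fold, a log2 difference of 0.68 (SE 0.105, interval 0.44 to 0.91, adjusted p = 0.029). By size it was the 152nd largest difference upward among all genes, and the 61st by p. The call held without any 1 of mutant replicates 1 to 4 (adjusted p = 0.0392, 0.0305, 0.0486 and 0.0363). It ended without any 1 of wild-type replicates 1 to 4 (adjusted p = 0.0876, 0.126, 0.121 and 0.113), where the log2 difference stayed between 0.65 and 0.71, and after median centring (log2 difference 0.58, adjusted p = 0.0813).

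The genes cwp-1, cwp-2 and cwp-3 lie next to each other, in this order, on chromosome V of the RefSeq annotation. The neighbours of cwp-2 did not pass with it. The level of cwp-1 was 6.48, 6.66, 6.54 and 6.34 on the mutant arrays and 6.39, 6.44, 6.67 and 6.30 on the wild-type arrays. The log2 difference was 0.06 (interval -0.17 to 0.28, adjusted p = 0.917), and the highest value belonged to wild-type replicate 3. The level of cwp-3 was 6.13, 6.12, 6.46 and 6.48 on the mutant arrays and 6.15, 6.19, 6.25 and 6.30 on the wild-type arrays. Mutant replicates 3 and 4 lay above all wild-type arrays and mutant replicates 1 and 2 below all of them, so the difference of the means, 0.08 (interval -0.15 to 0.30, adjusted p = 0.878), stood for no single array. The order of the mutant arrays, 3 and 4 above 1 and 2, was also that of cwp-2. After median centring cwp-1 and cwp-3 turned to -0.04 and -0.02. Outside the cluster on either side, nas-9 read 0.14 and abhd-5.2 -0.01 as log2 differences (adjusted p = 0.573 and 0.987).

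The gene cwp-4 lies elsewhere on chromosome V, and cwp-5 on the X chromosome. For cwp-4 the mutant arrays read 6.19, 6.38, 6.29 and 6.60 and the wild-type arrays 6.48, 6.21, 6.33 and 6.46. Both groups spread over nearly the same range, and the log2 difference was -0.005 (interval -0.24 to 0.23, adjusted p = 0.994). For cwp-5 the mutant arrays read 7.23, 7.37, 7.47 and 7.45 and the wild-type arrays 7.16, 7.21, 7.28 and 7.33. Mutant replicates 2, 3 and 4 lay above all wild-type arrays, and mutant replicate 1 among them. The log2 difference was 0.14 (interval -0.04 to 0.31, adjusted p = 0.636). The transcript of trf-1 read 7.76, 7.77, 7.33 and 8 on the mutant arrays and 7.78, 7.66, 8.19 and 7.81 on the wild-type arrays. It was the member with the lowest log2 difference, -0.15 (interval -0.49 to 0.20, adjusted p = 0.837). Mutant replicate 3, where cwp-2 was highest, was the lowest of the 8 arrays for trf-1.

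**Figure D2:**
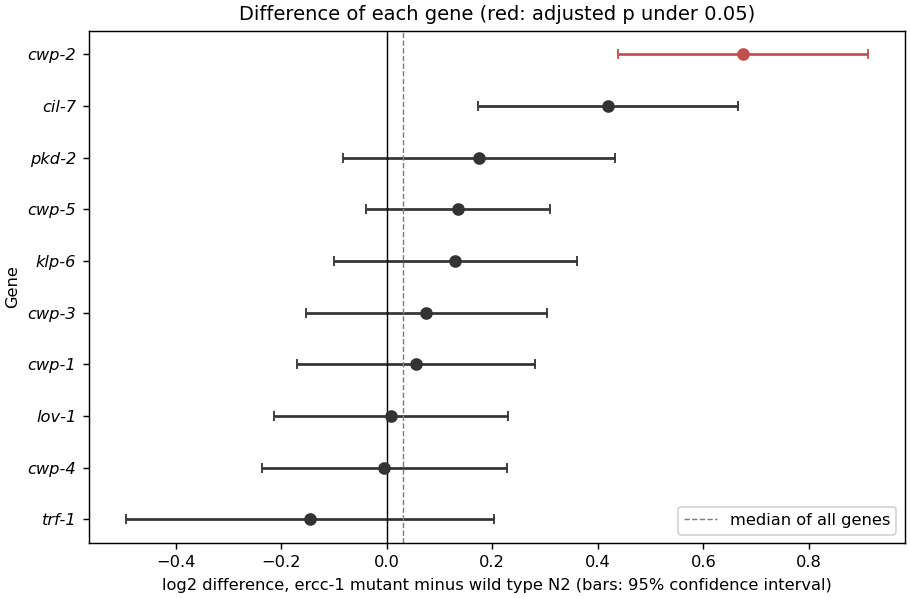
Log2 difference of each gene, ercc-1 mutant minus wild type N2, with its 95% confidence interval; the dashed line is the median of all genes, 0.03. The cwp-2 interval, 0.44 to 0.91, and the cil-7 interval lie above 0, those of the other 8 genes include 0, and cwp-2 passed the test.

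For the 8 genes other than cwp-2 and cil-7 the intervals included no difference. In the fit to all arrays as deposited, their upper ends reached at most 1.35-fold higher (pkd-2), and their lower ends at most 1.41-fold lower (trf-1). Over the alternatives tried, the log2 difference of trf-1 ran from -0.24 to -0.0167 and that of pkd-2 from 0.0683 to 0.2317. The fold limits therefore hold for that fit alone. Without detection calls it is not known whether the dim genes cwp-3, cwp-4 and pkd-2 were above background. Their intervals thus bounded the array values only. Within the groups the median SD of the 10 genes was near that of all probe sets among mutants and larger among wild types. Over 4 arrays it was 0.157 among mutants and 0.143 among wild types, beside 0.154 and 0.113 over all probe sets. The probe sets were not matched for level. The SD was larger in the mutant for 6 of the 10.

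Array by array the genes did not move as a block. The mean of the 10 genes, taken as the deviation from their wild-type means, was 0.07, 0.13, 0.14 and 0.27 on mutant replicates 1 to 4. It was -0.03, -0.04, 0.11 and -0.03 on wild-type replicates 1 to 4. Wild-type replicate 3 thus lay above mutant replicate 1. On mutant replicates 1 to 4, 5, 8, 7 and 9 of the 10 genes were above their wild-type mean. On wild-type replicates 1 to 4 these counts were 3, 2, 8 and 5. Mutant replicate 4 held the highest value of 4 of the genes, wild-type replicate 3 that of 3, and wild-type replicate 4 the lowest value of 4. Without cwp-2 and cil-7, the mean deviation of the other 8 genes was -0.03, 0.03, 0.01 and 0.20 on mutant replicates 1 to 4. It was -0.04, -0.08, 0.13 and -0.003 on wild-type replicates 1 to 4. The arrays' medians over all probe sets ran from 7.44 to 7.59 in the mutant and from 7.39 to 7.44 in wild type. After median centring, the mean of the 10 genes was -0.10, 0.03, 0.13 and 0.19 on the mutant arrays, the first of them below every wild-type array.

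**Figure D3:**
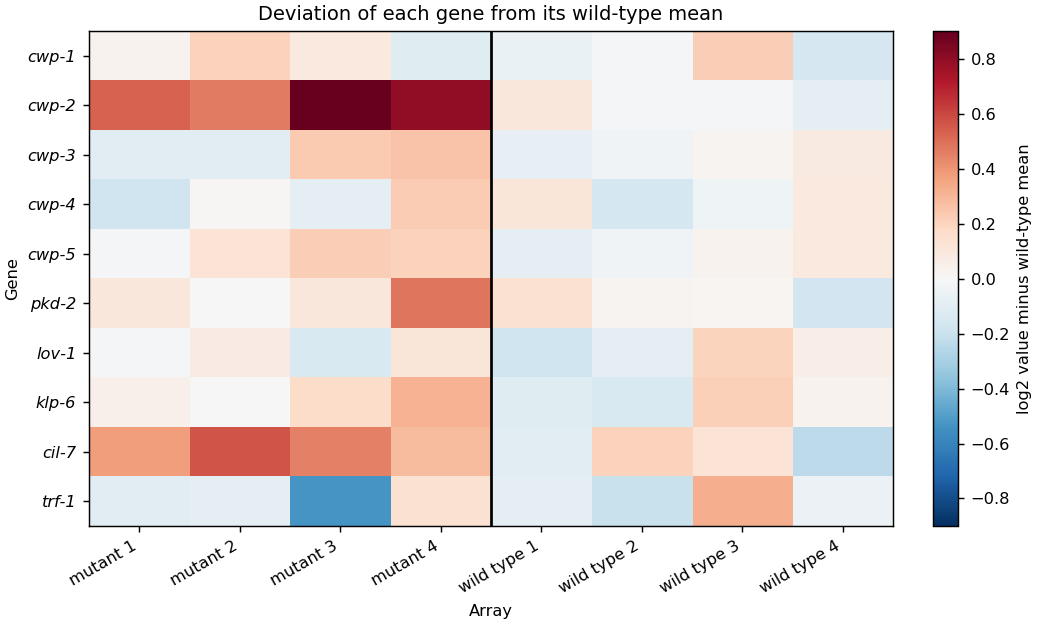
Deviation of each gene (rows) on each array (columns) from the gene's wild-type mean, in log2 units, red above and blue below. The cwp-2 and cil-7 rows are red on all 4 mutant arrays, mutant replicate 4 is above the wild-type mean for 9 of the 10 genes, and wild-type replicate 3 for 8.

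**Figure D4:**
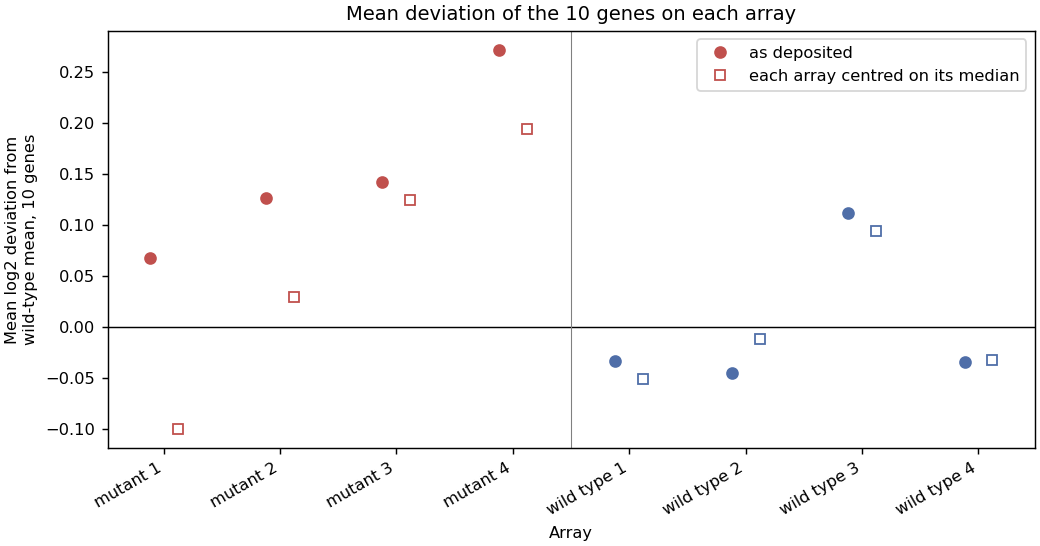
Mean log2 deviation of the 10 genes from their wild-type means on each array, as deposited (filled circles) and with each array centred on its median (open squares); red is ercc-1 mutant and blue wild type N2. Mutant replicate 4 is highest at 0.27 as deposited, wild-type replicate 3 at 0.11 lies among the mutant arrays, and mutant replicate 1 is at -0.10 after centring.

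By the root-mean-square distance between array profiles, each centred on its own mean over the 8 arrays, no other member was among the genes closest to cwp-2. The nearest were R03H10.4 (distance 0.0903), nhr-176 (0.102), clec-96 (0.106), C16C8.7 (0.109) and cyp-35D1 (0.115), where the median distance of all genes was 0.379. Of these, nhr-176 encodes a nuclear hormone receptor, clec-96 a C-type lectin-like protein and cyp-35D1 a cytochrome P450. The member nearest to cwp-2 was cil-7 at 0.248, followed by pkd-2 at 0.283 and cwp-5 at 0.297. Among the 17118 genes measured, 372 that were not members were closer than cil-7. The farthest members were trf-1 at 0.504 and lov-1 at 0.398, and all others were nearer to cwp-2 than the median distance. All 5 of the nearest genes had passed the test with a higher level in the mutant, by log2 differences of 0.52 to 0.69, which the nearness to cwp-2 makes likely in itself. The protein-coding genes next to the 10 members did not pass. Of 14 such neighbours that were measured and are not members, 0 were called by limma, against 0.672% of all genes. An unadjusted p under 0.05 was found for 1, Y40H7A.11 beside pkd-2 (log2 difference 0.19), against 10.5% of all genes. These neighbours were chosen after the values of the members were known.

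Genes that build the sensory cilium in both sexes did not pass. Of 46 measured genes for intraflagellar transport, its motors, the BBSome and the transition zone, 0 were called by limma, beside 0.672% of all genes. An unadjusted p under 0.05 was found for 4, beside 10.5% of all genes, and the list's median log2 difference was 0.03. The smallest p belonged to dyf-3, an intraflagellar transport gene (0.29, adjusted p = 0.19), to arl-13, a small GTPase of the cilium (0.27, adjusted p = 0.249), and to mks-3, of the transition zone (0.21, adjusted p = 0.381). In these 3 of 46 genes the mutant arrays all lay above the wild-type arrays, beside 5.01% of all genes. The list's median turned to -0.06 after median centring. The neighbour of cil-7, dyf-1, is one of the listed genes and read 0.10, with overlapping groups. Of 16 genes for sensory signalling in neurons of both sexes 0 passed, beside 0.672% of all genes. An unadjusted p under 0.05 was found for 1, beside 10.5% of all genes, and the list's median was 0.009. The TRP channel gene osm-9 read 0.27 (adjusted p = 0.255). It was the 1 gene of the 16 whose mutant arrays all lay above wild type, beside 5.01% of all genes. The cyclic nucleotide-gated channel gene tax-4 and the guanylyl cyclase gene odr-1 read -0.19 and -0.20 (adjusted p = 0.562 and 0.663).

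Measured were 32 genes that act with the polycystins, transport them or shape the cilia that release vesicles. Of these, 0 passed in limma, beside 0.672% of all genes, and 3 had an unadjusted p under 0.05, beside 10.5%. Their median log2 difference was 0.06. Besides arl-13, the smallest p belonged to egl-44, a transcription factor of the TEA domain family, at 0.42 (adjusted p = 0.41), and to kap-1, a subunit of kinesin-II, at -0.20 (adjusted p = 0.476). Mutant replicate 1 stood highest for egl-44, at 9.45 beside 8.81 to 8.97 on the other mutant arrays and 8.32 to 8.85 in wild type. For kap-1 the wild-type arrays read 7.48 to 7.50 and the mutant arrays 7.15 to 7.50.

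Genes of the male tail, the male nervous system and seminal fluid did not pass either. Of 23 measured, 0 passed in limma, beside 0.672% of all genes, and 1 had an unadjusted p under 0.05, beside 10.5%. Their median log2 difference was 0.10, and 0.01 after median centring, and 17 of the 23 lay above wild type, beside 59.5% of all genes. With array weights 2 of the 23 passed, in a fit that called 1423 of all 22548 probe sets. The chemoreceptor gene srj-54, known for expression in males, read 0.30 (adjusted p = 0.339). The sperm-activation genes snf-10, a transporter on sperm, and swm-1, a secreted protease inhibitor, read 0.16 and 0.20 (adjusted p = 0.519 and 0.528). Groups overlapped in all 3.

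In the list of sex determination and dosage compensation, 0 of 27 genes passed in limma, beside 0.672% of all genes. An unadjusted p under 0.05 was found for 2, beside 10.5% of all genes, and the list's median log2 difference was -0.02. HER-1 is a secreted protein made in XO animals that directs male development. Its transcript read 7.22, 7.05, 6.62 and 6.51 on mutant replicates 1 to 4. It read 6.29, 6.28, 6.35 and 6.36 on wild-type replicates 1 to 4. All mutant arrays were above all wild-type arrays, highest on replicates 1 and 2, which for cwp-2 were the lower mutant arrays. The log2 difference of her-1 was 0.53 and did not pass (adjusted p = 0.218). The genes sdc-3 and sdc-1 encode dosage compensation proteins active in XX animals. The level of sdc-3 was 7.35 to 7.61 in the mutant and 7.70 to 7.98 in wild type, a log2 difference of -0.28 (adjusted p = 0.29). That of sdc-1 was 8.27 to 8.43 in the mutant and 8.13 to 8.25 in wild type, a log2 difference of 0.15 (adjusted p = 0.515). These 2 genes lay apart from wild type in opposite directions.

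Loss of him genes raises the share of males, through X chromosome nondisjunction in several cases. The list also held zim-1, zim-2, zim-3 and xnd-1, whose effect on the share of males was not examined here. Of 15 listed genes measured, 0 passed in limma, beside 0.672% of all genes, and 0 had an unadjusted p under 0.05, beside 10.5%. Their median log2 difference was -0.05. The smallest p belonged to xnd-1, zim-3 and him-14, which act in meiosis (log2 differences -0.16, -0.16 and -0.09, adjusted p = 0.534, 0.72 and 0.749).

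Transcripts of sperm were measured beside those of male neurons. Major sperm proteins are made by males and, during larval sperm production, by hermaphrodites. Of 23 measured msp genes 18 passed the test with a higher level in the mutant, beside 0.532% of all genes. The mean was above wild type for all 23, beside 59.5% of all genes, with a median of 2.1-fold over the 23. The probe sets of all 23 carry the suffix _x_at or _s_at, and msp genes are near-identical in sequence, so the 18 are not separate readings of 18 genes. They were msp-3, msp-19, msp-31, msp-33, msp-36, msp-38, msp-45, msp-49, msp-50, msp-53, msp-55, msp-59, msp-64, msp-65, msp-76, msp-77, msp-78 and msp-152, at 1.97-fold to 2.34-fold (adjusted p from 0.0189 to 0.0477). The count was 10, 5, 14 and 23 when mutant replicates 1 to 4 were left out in turn. It was 0 when any wild-type array was left out, although the median log2 difference then stayed between 1.02 and 1.1. Leaving out a wild-type array cut the calls over all probe sets from 150 to between 29 and 37. The mean deviation of the msp genes from wild type was 0.91, 0.87, 0.83 and 1.67 on mutant replicates 1 to 4. Mutant replicate 4 was thus the highest array both for these genes and for the mean of the 10 male neuron and cilium genes. The part of sperm content in the latter was not tested. Yolk protein genes are expressed in the adult hermaphrodite intestine. Of 5 measured, 0 passed in limma, beside 0.672% of all genes, and 0 had an unadjusted p under 0.05, beside 10.5%. The log2 differences of vit-2, vit-5 and vit-1 were 0.13, 0.07 and -0.10 (adjusted p = 0.635, 0.799 and 0.842), and the groups overlapped in each.

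**Figure D5:**
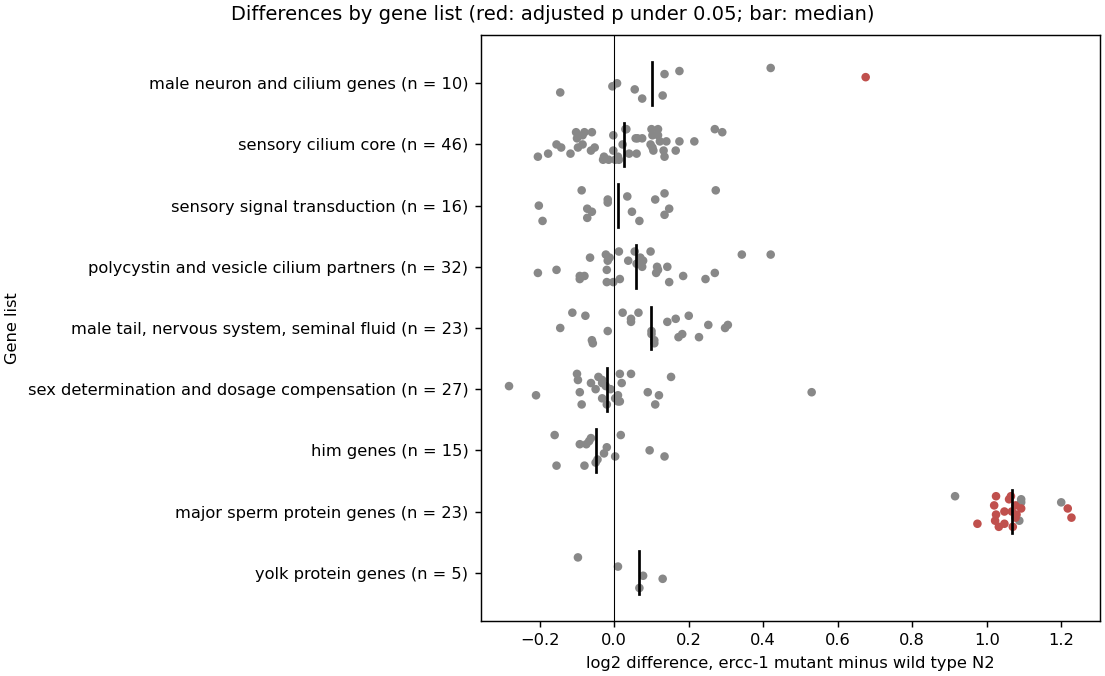
Log2 difference of each measured gene, ercc-1 mutant minus wild type N2, by gene list, with the list's median as a bar and genes that passed the test in red. The msp genes lie between 0.92 and 1.23, the 10 male neuron and cilium genes between -0.15 and 0.68 with cwp-2 the only member in red, and the remaining lists hold no gene in red.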

How the data were processed

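Total RNA of mixed-stage cultures was extracted with TRIZOL and hybridised to 8 Affymetrix C. elegans arrays, per the labels' protocols. The deposited table holds 1 value for each of 22548 probe sets and each array, read here as log2 expression from its range of 0 to 14.38, since the log base is not stated. The tool was Affymetrix Expression Console 1.1, per the submitters' processing notes; its algorithm is not given in the sources used here. No further normalization was applied. Probe sets were named by the platform annotation (20766 with 1 gene), and the probe set with the highest mean stood for a gene. The RefSeq table (WBcel235) gave chromosomes and neighbours only, since the build of the array design is not known.

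The fit used limma 3.58.1 (R 4.3.3) (2 groups of 4, Benjamini-Hochberg adjustment over 22548 probe sets), after the fit was tested on simulated data. The 10 members and the gene lists were chosen with earlier results of these data known. Named genes are the 10 members, each list's called genes and its 3 with the smallest p, and the 5 genes nearest to cwp-2. The following list entries matched no measured gene and were not analysed here: ift-20, nekl-4, mab-18, mab-23, lep-1, bro-1, plg-1, cod-5, cod-6, him-9 and vit-3. Tried as alternatives were median centring, quantile normalization, omission of dim or of _x_at and _s_at probe sets, a trended robust variance, array weights, a replicate block, other thresholds and leaving out each array. The number of arrays, 4 per group, limits the precision.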

Additional observations from a re-analysis of the deposited data

Results flagged for a closer look

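In groups of 4 arrays, a value was marked where its gap to the nearest other array, as a share of the group's range, passed Dixon's critical value for 4 values. Chance marks about 1 in 20 such groups, and 11 of 78 were marked, several of them on the same array. None of the 20 groups of single members was among them. The mean deviation of the 10 male neuron and cilium genes was marked on wild-type replicate 3, at 0.11 beside -0.04 to -0.03 on the other wild-type arrays. On mutant replicate 4 the marked values were 12.53 for msp-49, 12.47 for msp-50, 13.04 for msp-77, 8.13 for arl-13, 7.35 for sdc-3 and 14.29 for vit-5. The remaining mutant arrays read between 11.84 and 11.88 for msp-49, between 11.74 and 11.78 for msp-50 and between 12.27 and 12.31 for msp-77. They read between 7.83 and 7.88 for arl-13, between 7.58 and 7.61 for sdc-3 and between 14.35 and 14.36 for vit-5. On mutant replicate 2 clec-96 read 6.26, beside 6.55 to 6.59. On wild-type replicate 3 zim-3 read 9.80, beside 10.10 to 10.16, and vit-2 read 13.36, beside 13.56 to 13.60. On wild-type replicate 1 kap-1 read 7.50, beside 7.48 on each of the others, a step of the table's rounding.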

How the results depend on the processing

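The number of probe sets called, 150, was 1423 with array weights, 46 without _x_at and _s_at probe sets, 246 at an adjusted p under 0.1 and 2225 at an unadjusted p under 0.05. It ran from 29 to 268 when 1 array was left out. The number of the 10 genes called, 1, was 0 after median centring, 0 with the replicate block, 0 without the dimmest 25% of probe sets (which leaves cwp-2 out) and 2 with array weights or at an unadjusted p under 0.05 (cwp-2 and cil-7). It ran from 0 to 1 when 1 array was left out. With array weights, where 1423 of all 22548 probe sets were called, lists with 0 genes called gained calls. These were 2 of 46 genes in the sensory cilium core, 2 of 16 in sensory signalling and 1 of 32 among polycystin partners. They were also 2 of 23 male tail genes and 2 of 27 in sex determination. The median log2 difference of the 10 genes, 0.10, was 0.0125 after median centring. With the replicate number as a block, cwp-2 had an adjusted p of 0.0692. The block moved the number of probe sets called to 125. Same-numbered arrays deviated together with correlations of 0.473, 0.014, 0.04 and 0.201, so the numbers were not taken to pair the arrays. Directions turned only in genes near 0. With array weights, cwp-3 read -0.064 and cwp-4 0.0013. After median centring cwp-1 read -0.035, cwp-3 -0.015 and lov-1 -0.0825, and after quantile normalization lov-1 read -0.0712. When 1 array was left out, cwp-4 ran from -0.083 to 0.053 and lov-1 from -0.052 to 0.075. Beyond the shift that centring subtracts and the probe sets that filters leave out, the cause was not tested. Each of the 10 genes had 1 probe set, so averaging probe sets could not change their values. Among the other named genes, egl-44, tax-4, sdc-1 and nas-9 had 2, and averaging these was not tried. Without detection calls, it is not known which of the dim genes were above background.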
